A study of Mus musculus with 12 samples.

Results

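A set of 38 microarray probes had a low signal in adult mouse lung epithelial cells and a higher one in adult mammary, reprogrammed lung and reprogrammed mammary epithelial cells. Their adult mammary mean was close to the average of the reprogrammed groups. They are 38 of the 2270 probes in the authors' value table, out of 2579 non-control probes on the array. The members were chosen from the measured values, over the means of the 3 arrays of each group in the authors' deposited table of log2 values. A member had an adult lung mean at least 0.8 below the lowest of the other 3 group means, and an adult mammary mean less than 0.5 from the average of both reprogrammed means. The rule left out 8 named probes, of which 1, UCSF034_000379, met both thresholds. Because all 12 arrays entered the choice, the low level in adult lung and the closeness of adult mammary to the average of the reprogrammed groups are given as descriptions, with no test. The difference between the reprogrammed groups was not itself a criterion and was tested, but both reprogrammed means entered the rule, which limits how far they can lie apart in a member.

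MicroRNAs are short RNAs that guide Argonaute proteins to complementary sites in messenger RNAs, which are then degraded or less translated. Many microRNAs are restricted to particular tissues or cell lineages, and in epithelia some of them help to hold the epithelial state. A microRNA can be read by several probes of one array, and related microRNAs that differ by few bases can bind one another's probes. The probe names used here end in serial numbers, and 0 of these names were found in the RefSeq tables used here. For that reason no microRNA name, target or sequence is attached to a member, and the labelled cell types could not be checked against marker microRNAs.

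The study measured microRNA in 4 groups of 3 samples of mouse epithelial cells, with 1 sample per single-colour array. Per the labels' protocols, adult donor lung and mammary cells came from enzyme-digested organs of female mice of 10 weeks, enriched by repeated centrifugation with no cell sort named, and were put in Matrigel for transplantation. Reprogrammed lung and reprogrammed mammary cells carry those tissue labels in a series whose title speaks of adult lineages reprogrammed in vivo depending on the stroma. Whether such a label gives the organ the cells came from or the fate they took is not settled by the labels, and the sources used here do not say how the cells were recovered from the host. They give no strain, genotype, pooling or count of animals either. The p-values thus reflect the spread among these samples alone, and that spread may be technical.

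Array brightness differed between the groups. Over the 630 probes well above background on every array, the upper quartile of processed signal (percentile 75) averaged 2493 ± 424 for adult lung, 1405 ± 72.5 for adult mammary, 1519 ± 215 for reprogrammed lung and 837 ± 29.4 for reprogrammed mammary arrays (SD, n = 3). Signals below are log2 processed signal after each array was divided by this percentile, with a floor at 3.42, and no probe's level is compared with another probe's. Of the 38 members 18 have 6 spots per array and 20 have 7. All 38 were well above background on each of the 9 arrays outside adult lung, and 29 of them on all 12. In adult lung 8 members were well above background on 1 or 2 arrays, and 1 member, UCSF034_000859, on none. The number of arrays limits the precision of every value.

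On the scaled scanner signals all 3 adult lung arrays lay below all 9 other arrays for each of the 38 members, as for 15.2% of the 947 probes tested, a pattern that the choice of members used. The median over members of the group mean was higher than in adult lung by 1.71 for adult mammary, 1.68 for reprogrammed lung and 1.81 for reprogrammed mammary cells (log2). Over all 947 tested probes the corresponding medians were 0.00, 0.13 and 0.15. Among the 29 members well above background on every array, the adult mammary signal was a median 3.02-fold that of adult lung, with a range of 1.98 to 14.6. The reprogrammed lung signal was a median 2.99-fold, from 1.74 to 30.0, and the reprogrammed mammary signal 3.07-fold, from 2.19 to 13.4. Of these members, UCSF034_000727 and UCSF034_000728 were at the floor on adult lung replicate 2, so their ratios depend on the floor. In these bulk samples, fewer cells of a type and less RNA per cell cannot be told apart.

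Adult lung arrays were also the brightest, so the scaling bears on these differences. With no scaling the adult lung mean was the lowest of the 4 for 24 members, against 38 under each of 4 other scalings or background corrections and in the authors' values. With no scaling the probes tested shifted as a whole, by a median of -0.68 from adult lung to adult mammary, of -0.39 to reprogrammed lung and of -1.0 to reprogrammed mammary, the group with the dimmest arrays. The member median of reprogrammed mammary minus adult lung was then 0.49, against 1.81 with scaling. On the scaled signals, the adult mammary array of slide 1 exceeded the mean of that slide's adult lung arrays for all 38 members, by a median of 1.77. Within slide 2 adult mammary was higher for all 38, by a median of 1.54. Both counts follow from the choice of members and are no separate check on slide or scaling. Slide 3 held no adult lung array.

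At the edge of the rule, UCSF034_000418 was just inside, with an adult lung gap of 0.82 in the authors' values, as was UCSF034_000412, with 0.83. UCSF034_000752 fell just outside, with a gap of 0.7992, as did UCSF034_000417, with 0.78. For the distance of adult mammary from the average of the reprogrammed groups, UCSF034_000849 was the last member inside at 0.48, while UCSF034_000850 and UCSF034_000611 were outside at 0.52 each. The scanner signals put 37 of the 38 members inside the same thresholds. The exception, UCSF034_001756, had a gap of 0.7992 there and of 0.87 in the authors' values. On scanner signals 86 of the 947 tested probes met the thresholds, and 38 of these were other probes of the authors' table and 11 were among the 193 tested probes outside it. The membership therefore depends on which values the thresholds are put to.

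The members with the largest gap from adult lung in the authors' values were UCSF034_000381, UCSF034_000385 and UCSF034_000735. UCSF034_000381 read 5.70, 5.73 and 5.88 on adult lung replicates 1, 2 and 3 and 10.23, 9.67 and 9.02 on adult mammary replicates 1, 2 and 4 (log2 signal). Its reprogrammed lung replicates 1, 2 and 3 read 10.24, 11.18 and 10.62, and reprogrammed mammary replicates 1, 2 and 4 read 9.40, 9.55 and 9.60. Adult lung was lower than the 9 other arrays by more than the spread within any group, and every reprogrammed lung array was above every mammary array, though 1 pair was nearly equal. The mean was 14.6-fold that of adult lung for adult mammary, 30.0-fold for reprogrammed lung and 13.4-fold for reprogrammed mammary cells. UCSF034_000385 was at the floor of 3.42 on all 3 adult lung arrays, and well above background on 1 of them. Its adult mammary arrays read 7.85, 7.27 and 6.64, its reprogrammed lung arrays 7.82, 8.05 and 7.69, and its reprogrammed mammary arrays 7.26, 7.26 and 7.16, in the order of replicates just given, which is kept below. The size of its gap depends on the floor. UCSF034_000735 read 6.57, 6.73 and 6.89 on adult lung and 10.47, 9.47 and 9.47 on adult mammary arrays. In reprogrammed lung it read 9.91, 10.14 and 10.07, and its reprogrammed mammary arrays 9.35, 9.36 and 9.89. The highest adult lung array stood at 6.89 and the lowest of the 9 others at 9.35, apart by more than the spread within any group.

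The smallest ratios of adult mammary to adult lung, 1.98 to 2.10, were those of 4 members within 1 stretch of serial numbers. UCSF034_000750 read 14.17, 14.43 and 14.38 on adult lung and 15.73, 15.40 and 14.82 on adult mammary arrays. Its reprogrammed lung arrays read 14.99, 15.85 and 15.80, and its reprogrammed mammary arrays 15.76, 15.60 and 16.10. Adult mammary replicate 4 and reprogrammed lung replicate 1 were the arrays nearest to adult lung. The adult mammary mean was 1.99-fold the adult lung mean. UCSF034_000751, UCSF034_000756 and UCSF034_000757 had the same order of group means on these signals, with adult mammary at 1.98-fold, 2.10-fold and 2.05-fold of adult lung. UCSF034_001756 had the smallest ratio of reprogrammed lung to adult lung among the 29 members measured on every array, 1.74-fold. It read 14.42, 14.89 and 15.14 on reprogrammed lung against 14.33, 13.88 and 13.85 on adult lung arrays. Reprogrammed lung replicate 1 thus exceeded adult lung replicate 1 by less than the spread within either group. Its adult mammary arrays read 15.35, 15.12 and 15.13 and its reprogrammed mammary arrays 15.46, 15.03 and 15.62, all above the adult lung arrays.

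For the 9 members not well above background on all adult lung arrays, the floor sets the size of the gap. It also bears on the gap of UCSF034_000727 and UCSF034_000728, which were at the floor on adult lung replicate 2. UCSF034_000859 was not well above background on any adult lung array. It read 5.24, 5.17 and 4.48 on adult mammary, 4.72, 5.53 and 5.28 on reprogrammed lung and 4.56, 5.35 and 4.85 on reprogrammed mammary arrays. The lowest detected signal of each adult lung array was itself the floor of 3.42. The mean of UCSF034_000859 was 2.92-fold that floor for adult mammary, 3.37-fold for reprogrammed lung and 2.83-fold for reprogrammed mammary cells. These ratios depend on the floor and are not lower bounds. In the authors' values its means were above adult lung by 1.04, 1.16 and 0.98 in the same order (log2). UCSF034_001624 was at 3.42 on each adult lung array, and its means were 6.18 ± 0.60 for adult mammary, 6.36 ± 0.57 for reprogrammed lung and 6.51 ± 0.16 for reprogrammed mammary cells (SD, n = 3). UCSF034_000899 lay between 3.42 and 3.49 on adult lung arrays, with 6.36, 7.84 and 6.18 on adult mammary, 5.28, 6.78 and 7.17 on reprogrammed lung and 6.48, 6.70 and 6.85 on reprogrammed mammary arrays. Its spread was wide among adult mammary and reprogrammed lung arrays and narrow among reprogrammed mammary ones. The other 6 of the 9 are UCSF034_000385 and the 5 probes from UCSF034_000660 to UCSF034_000665 described with their neighbours.

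Many members sit next to one another in the numbering of the probe names. With a step of at most 5 between serial numbers, 26 of the 38 fell into 9 stretches and 12 stood alone, and 11 pairs were 1 number apart. This grouping was made after the values were seen. Over the 9 arrays outside adult lung, pairs within a stretch had a median Pearson correlation of 0.993 (29 pairs) and pairs from different stretches one of 0.23 (674 pairs). Of the 29 pairs 10 came from 1 stretch, UCSF034_000660 to UCSF034_000665. The lowest correlation of a stretch ran from -0.24 to 0.995 over the 9 stretches. These correlations are across arrays of 3 groups, and the points share array, label reaction and scaling. The lowest within a stretch was that of UCSF034_001756 with UCSF034_001759, at -0.24. Whether neighbouring probes read one RNA cannot be told without their sequences, so the 38 members are not counted as 38 independent measurements.

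The 5 probes UCSF034_000660, UCSF034_000661, UCSF034_000662, UCSF034_000663 and UCSF034_000665 had correlations of 0.993 to 0.998 with each other over the 9 arrays. UCSF034_000660 read 3.47, 3.42 and 3.42 on adult lung and 6.86, 5.71 and 5.26 on adult mammary arrays. In reprogrammed lung it read 4.15, 6.44 and 6.11, and its reprogrammed mammary arrays 4.80, 6.12 and 7.10. Reprogrammed lung replicate 1 was nearer to the adult lung arrays than to the other reprogrammed lung arrays. The largest within-group SD of any member, 1.28, was that of UCSF034_000661 in reprogrammed lung, where the arrays read 3.99, 6.38 and 5.98. UCSF034_000663 followed with 1.27, from 4.11, 6.46 and 6.10. UCSF034_000664, the number missing from the stretch, was at the floor in all 4 group means and was not tested.

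UCSF034_000909, UCSF034_000910 and UCSF034_000911 correlated at 0.994 to 0.998. UCSF034_000910 read 6.64, 6.62 and 7.21 on adult lung and 8.97, 8.83 and 8.67 on adult mammary arrays. Its reprogrammed lung arrays read 7.44, 8.61 and 9.44, and its reprogrammed mammary arrays 9.19, 9.12 and 9.62. Reprogrammed lung replicate 1 was close to the highest adult lung array, and the 3 reprogrammed mammary arrays were above all adult mammary arrays. In the authors' values these 2 groups overlapped, with reprogrammed mammary replicates 1 and 2 at 8.93 and 8.82 and adult mammary replicate 1 at 9.02. UCSF034_000764, UCSF034_000765 and UCSF034_000769 were tight in adult mammary and wide in both reprogrammed groups. UCSF034_000765 read 8.47, 9.08 and 9.12 on adult lung and 10.47, 10.57 and 10.17 on adult mammary arrays. In reprogrammed lung it read 9.46, 11.04 and 11.41, and its reprogrammed mammary arrays 9.92, 10.01 and 12.12. Reprogrammed lung replicate 1 and reprogrammed mammary replicates 1 and 2 were below all adult mammary arrays, and the other 3 reprogrammed arrays were above them.

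UCSF034_000727 and UCSF034_000728 differed by at most 0.10 on any of the 9 arrays once each was centred on its own mean. UCSF034_000727 read 4.04, 3.42 and 3.48 on adult lung and 7.30, 6.51 and 6.11 on adult mammary arrays. Both probes were at the floor on adult lung replicate 2. Its reprogrammed lung arrays read 6.14, 7.26 and 5.83, and its reprogrammed mammary arrays 5.93, 7.23 and 7.12. The 3 groups outside adult lung overlapped. UCSF034_000612 and UCSF034_000613, with a correlation of 0.951, had reprogrammed lung replicate 1 as the highest of its group. UCSF034_000612 read 10.78, 10.11 and 10.21 on reprogrammed lung and 9.03, 8.88 and 9.05 on adult lung arrays. Its adult mammary arrays read 10.37, 10.77 and 10.96, and its reprogrammed mammary arrays 10.25, 10.55 and 10.53.

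The members UCSF034_000412, UCSF034_000418, UCSF034_000420, UCSF034_000421, UCSF034_000441 and UCSF034_000650 varied together among the adult mammary arrays. These 6 were put together after their values were seen, and their pairwise correlations over the 9 arrays ran from 0.70 to 0.978, with a median of 0.91. Adult mammary replicate 1 was the lowest of its group at all 6, by 0.94 to 2.27 below replicate 2. Reprogrammed mammary replicate 1 was the lowest of its group at all 6 as well. Both arrays were also the lowest of their groups for UCSF034_000612, UCSF034_000613, UCSF034_001232, UCSF034_001263 and UCSF034_001759, outside these 6. UCSF034_000420 read 6.77, 8.88 and 8.02 on adult mammary and 6.13, 6.32 and 6.50 on adult lung arrays. Adult mammary replicate 1 was thus nearer to adult lung than to the other adult mammary arrays. Its reprogrammed lung arrays were tight at 7.87, 7.84 and 7.80, and its reprogrammed mammary arrays read 7.11, 8.08 and 7.90. UCSF034_000650, among the 3 members with the smallest gap in the authors' values, read 7.22, 7.65 and 7.62 on adult lung and 8.49, 9.53 and 9.19 on adult mammary arrays. In reprogrammed lung it read 8.78, 8.92 and 9.07, and its reprogrammed mammary arrays 8.36, 8.93 and 8.85. UCSF034_000412 read 7.53, 7.85 and 7.97 on adult lung, with the other 9 arrays from 8.68 to 9.78.

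Of the remaining members, UCSF034_001232 read 9.29, 9.28 and 9.64 on adult lung arrays, and its 9 other arrays lay between 10.80 and 11.39. UCSF034_002536 read 6.38, 6.09 and 6.69 on adult lung and 9.21, 7.93 and 8.50 on reprogrammed lung arrays, where replicate 1 was the highest. UCSF034_000849 read 4.81, 4.75 and 5.27 on adult lung and 5.89, 7.56 and 7.77 on reprogrammed lung arrays, where replicate 1 was the lowest. Replicate 1 of reprogrammed lung therefore deviated in opposite directions at these members. UCSF034_000849 had adult mammary arrays at 7.69, 8.09 and 7.77 and reprogrammed mammary arrays at 7.48, 7.28 and 8.40. The adult lung means of UCSF034_000680, UCSF034_001263 and UCSF034_001759 were 5.56, 6.61 and 7.42, and their adult mammary means 7.84, 8.31 and 8.98. Their reprogrammed lung means were 7.30, 8.19 and 9.11 and their reprogrammed mammary means 7.96, 7.92 and 9.26.

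To set the arrays side by side, each member was placed on a line from its adult lung mean (0) to its adult mammary mean (1), both fixed by these same arrays. The median position over the 38 members was 1.13 and 1.07 on reprogrammed lung replicates 2 and 3 and 0.74 on replicate 1. On reprogrammed mammary replicates 1, 2 and 4 it was 0.79, 1.05 and 1.19. The adult mammary arrays themselves ran from 0.91 to 1.07. Reprogrammed lung replicate 1 lay below 0.5 for 14 of the 38 members, the lowest, 0.24, being UCSF034_000661. These 14 were the 5 members from UCSF034_000660 to UCSF034_000665, the 3 from UCSF034_000764 to UCSF034_000769, the 3 from UCSF034_000909 to UCSF034_000911, and UCSF034_000680, UCSF034_000849 and UCSF034_001756. On reprogrammed lung replicates 2 and 3 and reprogrammed mammary replicates 2 and 4 there were 0 members below 0.5, and on reprogrammed mammary replicate 1 there were 2. Adult mammary replicates 1 and 4 also had 2 members each below 0.5, and adult mammary replicate 2 had 0.

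Reprogrammed lung replicate 1 was below the mean of the other 2 reprogrammed lung arrays for 31 of the 38 members, and the median over members was -0.73 (log2). It was below it for 513 of all 947 tested probes, with a median of -0.05. It was the lowest array of its group for 28 members (73.7%) and for 49.4% of the probes tested. The median over members ran from -0.69 to -0.43 over 6 other settings, namely other scalings, no scaling, normexp correction and the authors' values. Reprogrammed mammary replicate 1 was the lowest of its group for 24 members (63.2%), against 39.6% of the probes tested. Both arrays were on slide 3, and the third array of that slide was adult mammary replicate 2. It was the lowest of its group for 2 members (5.26%), against 21.8% of the probes tested. Arrays of other slides stood apart too. Adult mammary replicate 4, on slide 2, was the lowest of its group for 23 members (60.5%), against 31.0% of the probes tested, and reprogrammed mammary replicate 4, on slide 1, was the highest for 24 (63.2%), against 37.4%. The part of the slide in these counts was not tested. Among the adult lung arrays, replicate 3, the brightest of them and the only one on slide 2, was the highest for 19 of the 29 members measured on all 3, against 28.7% of the 819 tested probes so measured. The part of brightness in this was not tested.

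The median SD over members was 0.50 for adult mammary, 0.54 for reprogrammed lung and 0.31 for reprogrammed mammary arrays, against 0.30, 0.34 and 0.27 over all tested probes. For adult lung it was 0.22 against 0.18. The floor lowers the adult lung SD of members near it, down to 0 for UCSF034_000385, UCSF034_000662, UCSF034_000859 and UCSF034_001624. The difference in spread was not tested.

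The reprogrammed groups were then compared with each other, a contrast the rule did not set a threshold on. It used both means, and a reprogrammed group was the lowest of the 3 groups outside adult lung for 35 of the 38 members in the authors' values. The choice of members therefore bears on the size of the difference, and nothing is read from the members' counts against those of all probes. Between them 0 of the 38 members passed the test (limma over all 947 tested probes, Benjamini-Hochberg adjusted p under 0.05, lowest adjusted p = 0.0829), against 2 of the 947 tested probes, or 0.211%. At an unadjusted p under 0.05 there were 3 members (7.89%), UCSF034_000381, UCSF034_000385 and UCSF034_001756, against 19.3% of all tested probes. Their number was 1 with no common floor, against 180 of all 947 tested probes, and 1 after quantile normalization, against 156. It was 1 without reprogrammed lung replicate 1 (171 of all tested probes), reprogrammed lung replicate 2 (122) or reprogrammed mammary replicate 1 (118). Without reprogrammed lung replicate 3 it was 6, against 229, and with no scaling it was 17, against 455. The arrays of the reprogrammed groups did not overlap for 3 members, UCSF034_000381, UCSF034_000385 and UCSF034_000735, all lower in reprogrammed mammary, against 20.2% of the probes tested in either direction. Each slide held 1 array of either reprogrammed group, and the difference had the same sign on all 3 slides for 9 members (23.7%), against 41.2% of the probes tested. A p that misses the threshold does not show that the reprogrammed groups were alike.

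UCSF034_000381 had the lowest difference, reprogrammed mammary minus reprogrammed lung, at -1.17 ± 0.30 (SE, 95% interval -1.84 to -0.49, limma adjusted p = 0.0829), with -1.02, -1.63 and -0.85 on slides 1, 2 and 3. UCSF034_000385 followed with -0.62 ± 0.25 (SE, interval -1.19 to -0.06, limma adjusted p = 0.22), and UCSF034_000735 with -0.51 ± 0.27 (SE, interval -1.11 to 0.09, limma adjusted p = 0.347). The SE of UCSF034_000385, whose adult lung arrays were all at the floor, was 0.37 with no common floor and 0.12 with the reprogrammed arrays alone, so its interval depends on which arrays set the spread. Each of the 3 members was lower in reprogrammed mammary on all 3 slides, and none of these 3 passed the threshold. At the other end UCSF034_000910 was at 0.81 ± 0.42 (SE, interval -0.13 to 1.75, limma adjusted p = 0.343), and its neighbours UCSF034_000909 and UCSF034_000911 were at 0.77 ± 0.40 and 0.74 ± 0.40 (SE). For these 3 the difference was 1.74, 1.67 and 1.55 on slide 3, while on slides 1 and 2 it lay between 0.18 and 0.51. Without reprogrammed lung replicate 1, which is on slide 3, the differences were 0.28, 0.26 and 0.26.

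Over the 38 members the median difference between the reprogrammed groups was 0.14, against -0.0004 over all 947 tested probes. In reprogrammed mammary cells 26 members were higher and 12 lower, against 468 higher and 474 lower of all tested probes. Single arrays decided that direction. Without reprogrammed lung replicate 1 the median was -0.17 with 14 members higher, and without reprogrammed mammary replicate 4 it was -0.09 with 15 higher. Within slides 1, 2 and 3 the median was 0.25, -0.18 and 0.48, with 28, 13 and 20 of the 38 members higher in reprogrammed mammary cells. Of the 947 tested probes 494, 439 and 436 were higher there on these slides. In the authors' values 19 of the 38 members were higher, with a median of 0.03.

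Relative to adult mammary cells the rule held the average of the reprogrammed groups close, though not each group on its own. Reprogrammed lung means were above adult mammary means for 15 of the 38 members, with a median difference of -0.15, and reprogrammed mammary means for 19, with a median of 0.01. In the authors' values the counts were 13 and 15 and the medians -0.17 and -0.05. UCSF034_000381 had the highest difference of reprogrammed lung from adult mammary, 1.04, while its reprogrammed mammary mean differed from adult mammary by -0.12. UCSF034_000849 had the lowest difference of reprogrammed lung from adult mammary, -0.78. Of the 3 groups outside adult lung, reprogrammed mammary had the highest mean for 19 members, adult mammary for 13 and reprogrammed lung for 6 on scanner signals. In the authors' values these counts were 14, 13 and 11, with UCSF034_000750, UCSF034_000751, UCSF034_000756 and UCSF034_000757 turning to reprogrammed lung as the highest, so the order of these groups depends on the values used.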

How the data were processed

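MicroRNA was labelled with Cy3 and measured on 12 Agilent arrays, and slides 1, 2 and 3 were read from the array identifiers. The members and lists were chosen with earlier results of these data known. Per the file headers, the deposited spot intensity values are linear and Feature Extraction had subtracted the background from the processed signal (version 10.5.1.1 in 11 files, against 10.1 per the submitters' processing notes). The file of reprogrammed lung replicate 3 held no header. The authors' deposited value table holds log2 values of 2270 probes. Each of its columns correlated best with the median spot signal of its own array (r from 0.997 to 1.000), which gives log scale and direction, while its scaling and centring are unknown. The column medians were 4.97, 4.97 and 5.00 (adult lung), 4.98, 4.97 and 4.97 (adult mammary), 4.97, 4.98 and 4.99 (reprogrammed lung) and 4.98, 4.97 and 4.98 (reprogrammed mammary). There were 0 columns of other samples.

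Between 164 and 345 outlier spots were dropped from each array, and 0 were saturated. Processed signal was divided by each array's 75th percentile over 630 probes and floored at 10.7, which is, taking the median array, the percentile 5 of spots well above background. The log2 signals of a probe's spots were averaged, and a probe counted as well above background where over a share of 0.5 of its spots were. The 947 probes so on at least 3 arrays were tested, and 1 of them, not a member, lacked a value on 1 array. Tests used limma 3.58.1 in R 4.3.3 (4 group means, no block, 8 residual and 1.47 prior degrees of freedom, Benjamini-Hochberg), after the script was tested on simulated data. Alternatives were other scalings, normexp background correction (on the median spot signal, since no mean signal was in the files, offset 50), the authors' values, other filters, floors and rule thresholds, slide and replicate blocks, the reprogrammed arrays alone and each array left out.

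Members named by rule were any past the threshold, the 3 highest and 3 lowest differences between the reprogrammed groups, the 3 largest and 3 smallest gaps in the authors' values, the 3 strongest signals, the 3 largest SDs, members 1 serial number apart, and the 2 nearest probes outside each threshold. Other members were named so that all 38 are accounted for.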

Additional observations from a re-analysis of the deposited data

How the results depend on the processing

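The count of members that passed the test between the reprogrammed groups was 0 in 23 of 25 other settings, each array left out among them (0 to 0). With no scaling it was 10 (26.3%), all lower in reprogrammed mammary, against 36.6% of all tested probes. With normexp background correction it was 2 (5.26%), UCSF034_000381 at -1.08 and UCSF034_000859 at 0.46, against 49.4% of all tested probes. In those settings all tested probes shifted by a median of -0.69 and 0.48, and relative to that shift the members' median was -0.01 and -0.30. With no scaling the members' median was -0.70, and UCSF034_000909, UCSF034_000910 and UCSF034_000911 turned to -0.079, -0.039 and -0.11. The members' median ran from -0.17 to 0.30 over single arrays left out. It was 0.12 with each stretch of neighbouring numbers counted once, an alternative chosen after seeing the data, with 13 of 21 units higher.

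The count over all tested probes, 2 of 947, was 0 with the percentile over all probes (limma, 173 at an unadjusted p under 0.05), 347 with no scaling, 5 with no common floor, 8 after quantile normalization, 468 after normexp (453 higher) and 23 with total gene signal. It was 12 with no filter, 1 with at least 6 arrays well above background, 0 with slide as a fixed block (176 at an unadjusted p under 0.05) and 0 with the 6 reprogrammed arrays alone (138 so). Over single arrays left out it ran from 0 (without reprogrammed mammary replicate 1, 118 at an unadjusted p under 0.05) to 16 (without reprogrammed lung replicate 3). The replicate block gave 2 probes and 0 members, with 4 members at an unadjusted p under 0.05. Same-numbered reprogrammed arrays had correlations of 0.12 and -0.01 of their deviations, and the labels do not say that numbers pair samples.

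On scanner signals 11 members stayed inside the rule with no scaling and 34 to 37 under the 5 other scalings or corrections run, and 31 to 38 with an array left out of the authors' values. With the percentile over all probes the adult lung arrays were all lowest for 30 members, and with no scaling for 11. The median adult lung gap, 1.17 in the authors' values, was 1.55 on scanner signals, 1.51 after quantile normalization, 0.49 with no scaling, 1.41 with normexp and 1.45 with total gene signal, and 0.996 to 1.30 with an array left out. The causes were not tested.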
